A study of Rattus norvegicus with 12 samples.

Results

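The collagen genes of the rat lumbar spinal cord were followed across spinal cord injury (SCI). They were the protein-coding genes whose symbol has the form of a collagen chain (Col, a type number, a, a chain number), and 44 of the 23526 genes in the table met that rule. They comprised 11 chains of fibrillar collagens, 8 chains of basement membrane collagens and 25 other chains. No symbol was repeated, all 44 had counts in every one of the 12 libraries, and all 44 passed the filter on low counts. RNA sequencing had been done on whole tissue from rat lumbar cord (segments L3 to L5), with 3 samples of sham treatment at day 0 and 3 samples each at days 3, 7 and 14 after SCI. The labels give no strain, sex, age or injury method, and day 0 is the sole time of the sham samples. Whether each sample is a different animal is not stated either, so the p-values reflect variation between samples that may in part be technical. Libraries held 63010295 to 79072710 counts, with 64585462 to 65153240 in the sham group. Levels are given as CPM (counts scaled to the same total in every library) and, where chains are compared with each other, as the deposited FPKM, which divide fragments by gene length as well as depth.

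Collagens are secreted proteins built from triple helices of chains, and each collagen type combines its own set of chains. Fibrillar collagens (types I, II, III, V, XI, XXIV and XXVII) form the fibres of connective tissue and of fibrotic scars. In nervous tissue they are made mainly by fibroblast-like cells of the meninges, the vessel wall and peripheral nerve. Type IV collagen forms the sheet-like network of basement membranes, which in the cord surround blood vessels and underlie the pial surface, and in nerve roots surround each Schwann cell. Types XV and XVIII, the multiplexins, sit at the outer face of basement membranes. The remaining types decorate fibrils (the FACIT collagens), form beaded filaments (type VI) or hexagonal networks (type VIII), or span the cell membrane.

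Composition varied from library to library, also inside a group, and marker sums are given beside the results they move with. Neuron markers (10 genes) summed to 2043 to 2892 CPM in sham, but to 243 and 180.5 CPM in day 3 replicates 1 and 3, where all 10 lay below every sham library. Day 3 replicate 2 held 2001 CPM, and day 14 replicate 2 held 744 CPM. Schwann cell markers (8 genes) summed to 4977 and 6410 CPM in sham replicates 1 and 3 and to 40551 CPM in sham replicate 2, where all 8 were highest among the sham libraries. They reached 12584.5 to 48528 CPM at day 3, highest in replicate 3, 1896 to 16550 CPM at day 7 and 12631 to 23074 CPM at day 14. Endothelial markers (9 genes) summed to 328 to 454 CPM in sham and 673 to 1757 CPM at day 3, and all 9 were above every sham library in day 3 replicates 1 and 3. Markers of fibroblasts and meninges (9 genes) summed to 340.0 to 1021 CPM in sham, highest in replicate 2, and 1006 to 3171 CPM at day 3, highest in replicate 3. Dcn and Lum carried these sums, at 676 and 223 CPM in sham replicate 2, and Dcn alone was at 2703 CPM in day 3 replicate 3. Only 2 of the 9 were highest among the sham libraries in replicate 2, and only 3 of the 9 lay above sham in all day 3 libraries. None of the markers in these 4 lists was at 0 in any library. Oligodendrocyte markers were abundant throughout (27544 to 67425 CPM for 5 genes). In tissue of this kind, fewer cells of a type and less RNA per cell cannot be told apart.

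Summed over a class, collagen transcripts had their highest group means at day 3 in all 3 classes, though the fibrillar mean at day 14 was nearly the same, and the sham libraries spread widely. The 11 fibrillar chains together measured 1373, 4079.8 and 1204 CPM in sham replicates 1, 2 and 3. They measured 2005, 3506 and 4540.0 CPM at day 3, 939, 2725 and 2137 CPM at day 7 and 3134, 3239 and 3663 CPM at day 14. Sham replicate 2 was exceeded only by day 3 replicate 3, so every day overlapped sham. The 8 basement membrane chains measured 554, 1718 and 544 CPM in sham and 3096, 1574 and 4195 CPM at day 3. At day 7 they measured 612, 872 and 1723 CPM and at day 14 1225, 1325 and 1229.5 CPM. Here the highest values of all belonged to day 3 replicates 1 and 3, while replicate 2 of that day lay below sham replicate 2. The 25 other chains measured 638, 1293 and 598 CPM in sham, 1378, 1043 and 2180.4 CPM at day 3, 608, 991 and 1332 CPM at day 7 and 1214, 1763 and 1136 CPM at day 14, again with overlap at each day.

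**Figure D1:**
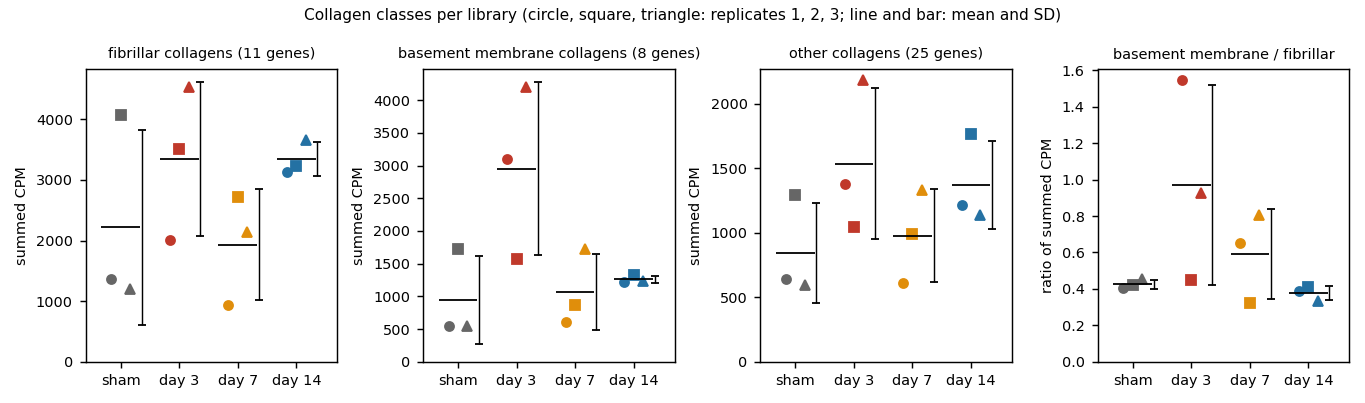
Summed CPM of the 3 collagen classes and the ratio of the basement membrane sum to the fibrillar sum, by group, with 1 point per library and the mean and SD of 3 libraries beside the points. Sham replicate 2 (square) stands above the other sham libraries in every class but not in the ratio, and day 3 replicates 1 and 3 (circle and triangle) have the highest basement membrane sums.

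As mean ± SD of 3 libraries, the fibrillar sum was 2219 ± 1614 CPM in sham and 3350.5 ± 1275 CPM at day 3, a log2 ratio of 0.59. The basement membrane sum went from 939 ± 675 to 2955 ± 1316 CPM, a log2 ratio of 1.65. At day 14 the log2 ratios were 0.59 and 0.42. The SD of the sham group was large beside its mean in both classes. Without sham replicate 2 the log2 ratios of the fibrillar and basement membrane sums were 1.38 and 2.43 at day 3 and 1.38 and 1.20 at day 14. Without day 3 replicate 3 the day 3 ratios were 0.31 and 1.31. That library's Schwann cell marker sum is given above, and its part in these sums was not tested.

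The balance between the classes was steadier in sham than the sums were. The basement membrane sum was 0.404, 0.421 and 0.452 of the fibrillar sum in the sham libraries, although sham replicate 2 held about 3 times the counts of both. At day 3 the ratio was 1.54, 0.449 and 0.924, at day 7 it was 0.652, 0.320 and 0.806, and at day 14 it was 0.391, 0.409 and 0.336. Day 3 replicates 1 and 3 therefore stood above every sham library, and day 3 replicate 2 lay within the sham range. As a share of all collagen counts, basement membrane chains took 21.6, 24.2 and 23.2% in sham, 47.8, 25.7 and 38.4% at day 3, 28.4, 19.0 and 33.2% at day 7 and 22.0, 20.9 and 20.4% at day 14. The 2 libraries with the highest ratio were also the 2 with the fewest neuron marker counts and the highest endothelial marker sums (1757 and 1159 CPM). Whether that composition accounts for the ratio was not tested.

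**Figure D2:**
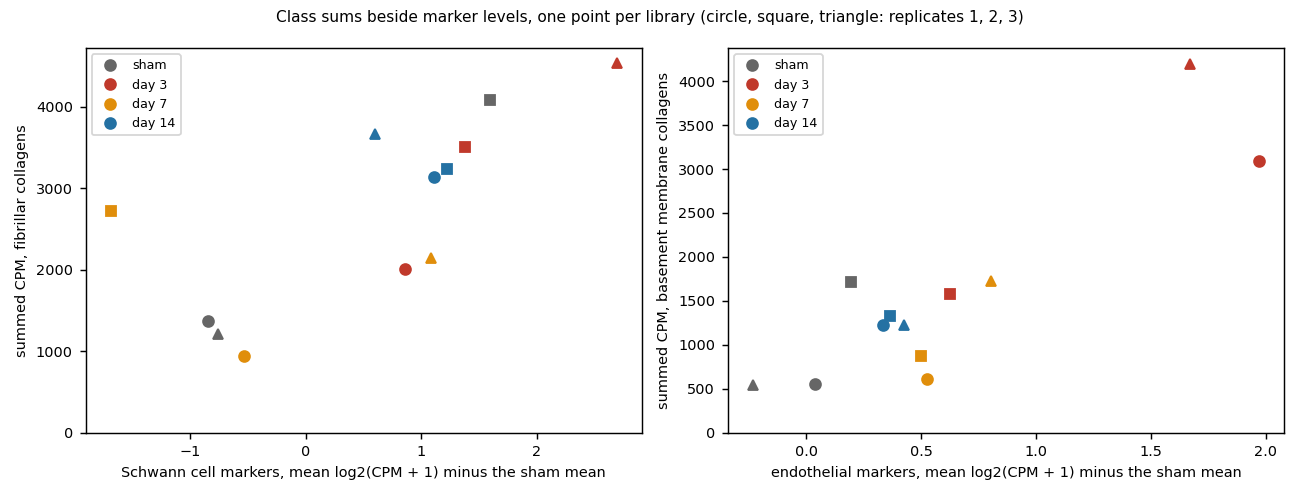
Left, the fibrillar sum against the Schwann cell marker level, and right, the basement membrane sum against the endothelial marker level, with 1 point per library (marker level as the mean log2(CPM + 1) minus the sham mean, collagen sums in CPM). Sham replicate 2 and day 3 replicate 3 are high on both axes on the left, with day 7 replicate 2 low in Schwann markers at a fibrillar sum of 2725 CPM, and day 3 replicates 1 and 3 stand apart on the right.

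Sham replicate 2 stood apart from the other sham libraries for many single chains. Of the 44 members, 23 (52.3%) were over 2-fold higher in that library than the mean of sham replicates 1 and 3, against 9.66% of all 18714 genes tested. The share was 8 of 11 for fibrillar, 4 of 8 for basement membrane and 11 of 25 for other chains. Col28a1, which codes for a collagen found around peripheral glia, measured 3.39, 31.5 and 3.55 CPM in the sham libraries, so its level in replicate 2 was 9.08 times the mean of the other two. Col4a5, one of the type IV chains, measured 27.3, 23.5 and 23.6 CPM in the sham libraries, a ratio of 0.922. At the other end Col10a1 and Col17a1, both with few counts, stood in replicate 2 at 0.326 and 0.345 times the mean of the other two. Day 3 replicate 3, the library with the most Schwann cell marker counts, was the highest of all 12 libraries for 15 members.

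**Figure D3:**
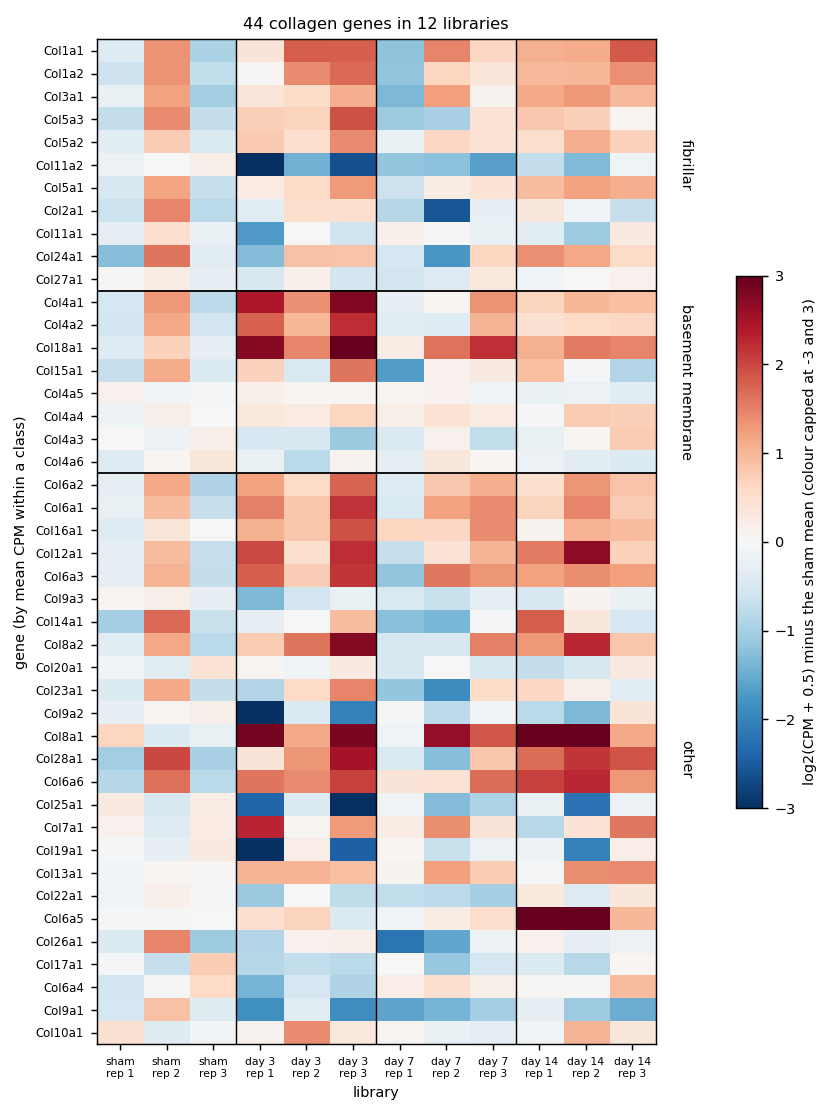
Each of the 44 collagen genes (vertical axis, by class and mean CPM) in each of the 12 libraries (horizontal axis), coloured by log2(CPM + 0.5) minus the mean of the sham libraries. Most fibrillar chains are red in sham replicate 2, Col11a2 is blue in all libraries of days 3 and 7, and Col18a1 is red in all libraries of day 3.

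At day 3 Col18a1 rose and Col11a2 fell, and the other 42 members did not pass the test. The test was edgeR's quasi-likelihood test over all 12 libraries, with Benjamini-Hochberg adjustment over the 18714 genes tested and a limit of 0.05. The 2 called members are 4.55% of the 44, beside 6.70% of all genes tested. In each direction there was 1 called member, beside 5.50% of all genes called higher and 1.20% called lower. At an unadjusted p under 0.05 there were 17 members (38.6%), 11 higher and 6 lower, beside 35.3% of all genes. DESeq2 called 9 members (20.5%, beside 27.5% of all genes) and limma voom with sample weights called 12 (27.3%, beside 33.3% of all genes). The members' share was below that of all genes under the edgeR, DESeq2 and limma voom limits and above it for the unadjusted p, and none of these gaps was tested. Both calls were lost without sham replicate 1 or 3, day 3 replicate 1 or 3, day 7 replicate 2 or day 14 replicate 3, and 0 members passed in each of those fits. In those same fits 1 to 18 of all genes passed. Over all settings the log2 fold change of Col18a1 ran from 2.10 to 3.03 and that of Col11a2 from -2.92 to -1.97. Without sham replicate 2 there were 5 calls (11.4%, beside 2.74% of all genes). Without day 3 replicate 2, the library with neuron marker counts near sham, there were 15 (34.1%, beside 37.1% of all genes).

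**Figure D4:**
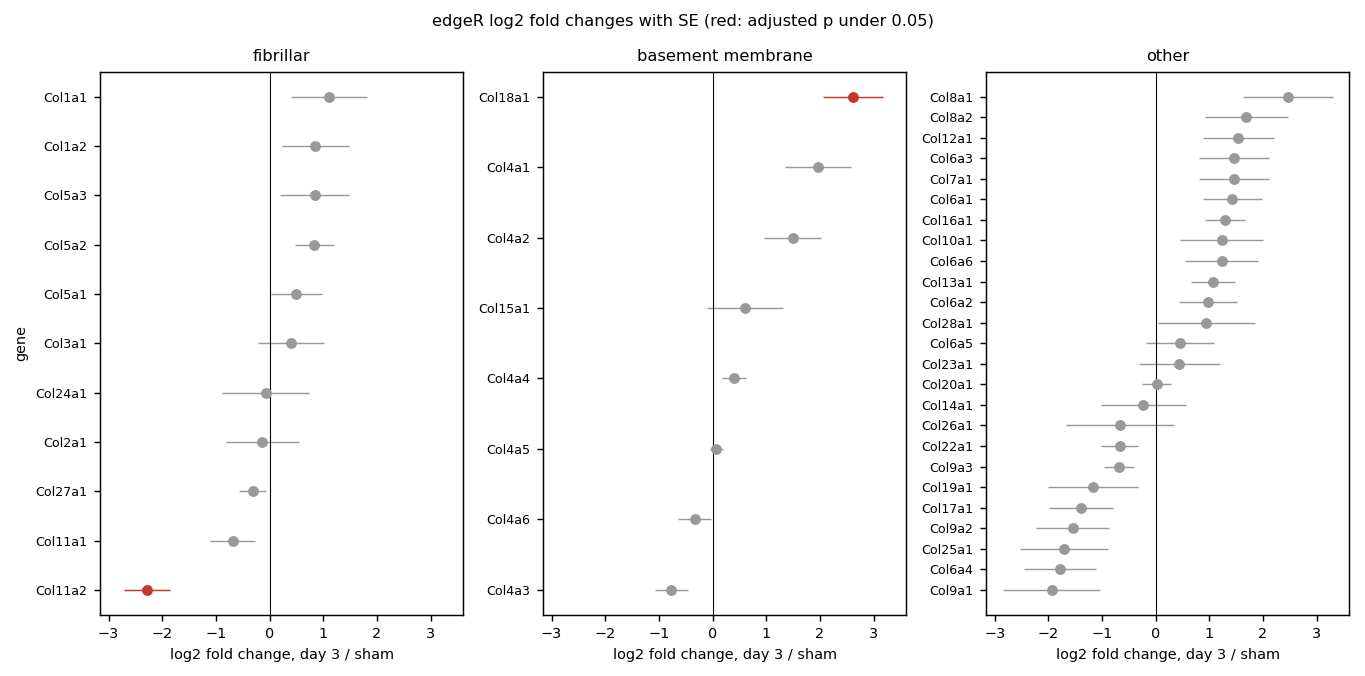
Log2 fold change of day 3 against sham for the 44 collagen genes (horizontal axis, point with SE), in 3 panels by class, with called genes in red. Col18a1 (2.62) and Col11a2 (-2.28) are the called genes, and the other chains spread on both sides of 0 in every class.

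Without regard to calls, fold changes at day 3 leaned upward. The median log2 fold change was 0.39 over the fibrillar chains (6 of 11 above 0), 0.50 over the basement membrane chains (6 of 8) and 0.45 over the other chains (15 of 25), beside 0.03 over all genes tested. Leaving out 1 library at a time, these medians ran from 0.02 to 1.21, 0.14 to 0.92 and 0.15 to 1.09, with the lowest fibrillar value without sham replicate 3 and the highest without sham replicate 2. In 10 members the 3 day 3 libraries did not overlap sham. The 6 above were Col4a1, Col4a4, Col8a1, Col13a1, Col16a1 and Col18a1, beside 21.2% of all genes, and the 4 below were Col4a3, Col9a2, Col11a2 and Col17a1, beside 15.9%.

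Among fibrillar chains, Col1a1 and Col1a2, the chains of type I collagen, and Col3a1, the chain of type III collagen, had the highest levels per length. Their deposited FPKM averaged 113, 114 and 95.7 over the 12 libraries, and together they made up 48.3% to 81.4% of the fibrillar FPKM of a library. Col1a1 (ENSRNOG00000003897, chromosome 10) measured 254, 847 and 171 CPM in sham, 433, 1173 and 1146 CPM at day 3, 145, 913 and 509 CPM at day 7 and 699, 719 and 1199 CPM at day 14. All groups overlapped sham through the high level in sham replicate 2, and the log2 fold change at day 3 was 1.10 ± 0.71 (SE; adjusted p = 0.279, edgeR). Col1a2 (chromosome 4), its partner chain, measured 211, 822 and 193 CPM in sham, 329, 858 and 1043 CPM at day 3, 142, 501 and 418 CPM at day 7 and 634, 647 and 841 CPM at day 14. Its order of libraries within sham and within day 7 was that of Col1a1. Col3a1 measured 260.3, 698 and 149 CPM in sham, 389, 439 and 642 CPM at day 3, 118, 705 and 324 CPM at day 7 and 659, 743 and 591 CPM at day 14, also overlapping sham at each day. Day 7 replicate 2, in which skeletal muscle markers summed to 172 CPM against at most 22.2 CPM elsewhere, had the highest day 7 level of all 3 genes, and the part of muscle in it was not tested. The type V chain Col5a3 measured 152, 672 and 152 CPM in sham, 412, 397 and 936 CPM at day 3, 119, 127 and 339 CPM at day 7 and 434, 408 and 266 CPM at day 14, with its 2 highest values in the 2 libraries with the most Schwann cell marker counts.

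Col11a2 codes for a chain of type XI collagen, a minor fibrillar collagen best known from cartilage, and was the member that fell. It measured 190.4, 216 and 246 CPM in sham, 24.0, 79 and 34.4 CPM at day 3, 96.1, 91.7 and 69.1 CPM at day 7 and 131, 85.4 and 198 CPM at day 14. Every day 3 and day 7 library lay below every sham library, and day 14 replicate 3 lay within the sham range. From 217 ± 27.7 CPM in sham it fell to 45.8 ± 29.2 CPM at day 3 (SD, n = 3 each), with a log2 fold change of -2.28 ± 0.43 (SE; adjusted p = 0.0332, edgeR). Sham replicate 2 was not high for this gene, at 0.991 times the mean of the other sham libraries. The lowest levels were in day 3 replicates 1 and 3, the libraries low in neuron markers (243 and 180.5 CPM). These markers stood at 2001 CPM in day 3 replicate 2 and at 1547 to 2150 CPM at day 7. At day 14 they stood at 2208, 744 and 1856 CPM, lowest in replicate 2, as Col11a2 was. Aldh1l1, a marker of astrocytes, measured 16.4, 16.2 and 11.1 CPM at day 3 against 43.0 to 55.9 CPM in sham, below sham in every library. Of the 6 astrocyte markers, 4 lay below every sham library in day 3 replicates 1 and 3. Their mean log2(CPM + 1) minus the sham mean was -0.834, -0.400 and -1.808 at day 3, against -0.447 to 0.263 in sham. Their sum was 5671, 4564 and 1763 CPM at day 3 against 2651 to 4825 CPM in sham. The part of either cell type in the fall was not tested. At day 7 its log2 fold change was -1.38 ± 0.42 (SE; adjusted p = 0.321, edgeR). DESeq2, limma voom and a fit of only day 7 and sham called it at that day. The adjusted p at day 3 ran from 1.12e-05 to 0.164 over 22 other settings, 13 of which called it. Its relative Col11a1, the partner chain in type XI, measured 59.8, 103 and 63.1 CPM in sham and 22.3, 72.1 and 48.2 CPM at day 3, with overlap. Of the other fibrillar chains Col2a1, the chain of cartilage type II collagen, was highest in sham replicate 2 (53.2, 231 and 47.7 CPM in sham). Of 10 cartilage and bone markers, 6 were also highest among the sham libraries in replicate 2. Cnmd, which was among these 6, stood at 372 CPM there against 45.4 and 53.8 CPM. The other 9 markers summed to 6.08 CPM there against 15.3 and 9.80 CPM in sham replicates 1 and 3, with Epyc, Matn1 and Snorc at 0 in at least 1 library.

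The promoter of Col11a2 is shown as that of the chain that fell. In RefSeq's rat assembly GRCr8 the 250 bases before its start lie at chr20:4817649-4817898 on the minus strand. Capitals mark the GC box, a promoter element written GGGCGG and searched on both strands, which occurs 3 times, with 2 of the matches overlapping.
Col11a2: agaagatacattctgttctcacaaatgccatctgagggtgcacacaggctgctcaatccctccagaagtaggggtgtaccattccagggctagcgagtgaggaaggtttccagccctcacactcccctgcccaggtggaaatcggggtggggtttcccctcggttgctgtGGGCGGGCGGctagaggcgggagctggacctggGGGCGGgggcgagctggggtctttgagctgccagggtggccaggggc
A GC box was found in this window in 32.4% of 27457 RefSeq promoters and in 19 of the 35 collagen genes with a RefSeq promoter (54.3%), 6 of 8 fibrillar, 6 of 8 basement membrane and 7 of 19 others. Of the other motifs searched on both strands, CCAAT was found in 11 members (31.4%, beside 34.3% of all promoters), TATAAA in 4 (11.4%, beside 13.1%) and the AP-1 motif TGANTCA in 1 (2.86%, beside 6.36%). These matches are descriptions of letters and not of binding. The members' windows held 40.4% to 75.2% G and C, beside a median of 52.0% over all promoters. The part of base content in the GC box share was not tested.

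Basement membrane chains were led by Col4a1 and Col4a2, the chains of the type IV network found in nearly all basement membranes, at 98.8 and 63.4 FPKM over the 12 libraries. Together they made up 55.0% to 79.8% of the FPKM of their class. Col4a1 (ENSRNOG00000016281, chromosome 16) measured 198, 706 and 166 CPM in sham, 1544, 742 and 1946 CPM at day 3, 242, 295 and 729 CPM at day 7 and 452, 573 and 535 CPM at day 14. All day 3 libraries lay above sham, though replicate 2 of day 3 was only 1.05 times sham replicate 2. Its log2 fold change at day 3 was 1.97 ± 0.61 (SE; adjusted p = 0.0671, edgeR), and it passed in 5 of 22 other settings. Col4a2 (ENSRNOG00000023972, chromosome 16) measured 183, 592 and 182 CPM in sham, 930.0, 538 and 1250.2 CPM at day 3, 215, 208 and 544 CPM at day 7 and 373, 409 and 414 CPM at day 14. Its day 3 replicate 2 lay below sham replicate 2, and its log2 fold change at day 3 was 1.49 ± 0.54 (SE; adjusted p = 0.0892, edgeR), past the limit in 4 of 22 other settings.

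Col4a1 and Col4a2 are transcribed away from each other from one shared stretch, shown here because these genes led their class. In GRCr8 their starts are separated by 76 bases at chr16:84885521-84885596, read below on the strand of Col4a1, with capitals marking the 1 GC box (reverse complement of GGGCGG) in it.
Col4a1-Col4a2: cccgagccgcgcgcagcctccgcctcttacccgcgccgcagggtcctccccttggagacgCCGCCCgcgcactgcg
A GC box lies in the 76 bases before the start of 19.3% of all RefSeq promoters. In the deposited table the gene models of Col4a1 and Col4a2 overlap by 307 bases on opposite strands. Whether counting used strand is unknown here, so reads of that overlap cannot be assigned.

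Col18a1 codes for the core of collagen XVIII, a heparan sulfate proteoglycan of vascular and epithelial basement membranes that is the source of endostatin, and it was the member that rose. It (ENSRNOG00000001229, chromosome 20) measured 40.1, 85.1 and 43.1 CPM in sham, 356, 147 and 542 CPM at day 3, 62.0, 165 and 242 CPM at day 7 and 111, 155 and 146 CPM at day 14. All day 3 and all day 14 libraries lay above sham, and 2 of 3 did at day 7. From 56.1 ± 25.2 CPM in sham it rose to 348 ± 197 CPM at day 3 (SD, n = 3 each), with a log2 fold change of 2.62 ± 0.56 (SE; adjusted p = 0.0369, edgeR). Endothelial markers, at 1757, 673 and 1159 CPM at day 3 against 328 to 454 CPM in sham, were likewise lowest of that day in replicate 2. Pericyte and smooth muscle markers (9 genes) summed to 921, 479 and 543 CPM at day 3 against 241 to 331 CPM in sham. The part of vessel content in the rise of Col18a1 was not tested. The lowest day 3 library was 1.73 times the highest sham library. The adjusted p ran from 0.000116 to 0.164 over 22 other settings, 13 of which called it. Its log2 fold change was 1.43 ± 0.54 (SE; adjusted p = 0.423, edgeR) at day 7 and 1.26 ± 0.54 (SE; adjusted p = 0.653, edgeR) at day 14.

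The window of 250 bases before the start of Col18a1, the member that rose, lies in GRCr8 at chr20:11473395-11473644 on the plus strand. It holds 3 GC boxes, in capitals and all in the reverse complement, in the part nearest the start.
Col18a1: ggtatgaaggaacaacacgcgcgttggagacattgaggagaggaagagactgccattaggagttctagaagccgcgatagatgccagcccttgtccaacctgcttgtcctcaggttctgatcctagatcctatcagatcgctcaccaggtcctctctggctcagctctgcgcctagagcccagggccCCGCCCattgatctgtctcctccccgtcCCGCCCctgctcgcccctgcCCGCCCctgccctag
Both called collagens thus have 3 such motifs, although they changed in opposite directions. Of the members not called, Col11a1 and Col5a3 also have 3, Col8a1 has 4 and Col8a2 has 5.

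Col15a1, the other multiplexin, did not share the day 3 pattern of Col18a1. It measured 80.1, 281 and 96.9 CPM in sham, 209, 93.7 and 398 CPM at day 3, 40.3, 141 and 156 CPM at day 7 and 241, 127 and 70.3 CPM at day 14. Day 3 replicate 2 and both lower sham libraries were close, and the log2 fold change at day 3 was 0.61 ± 0.70 (SE; adjusted p = 0.559, edgeR), which was -0.073 without day 3 replicate 3. Per length, Col18a1 stood at 0.392, 0.237 and 0.348 of Col15a1 in the sham libraries. This ratio was 1.33, 1.23 and 1.07 at day 3, 1.2, 0.915 and 1.22 at day 7, and 0.360, 0.958 and 1.63 at day 14. Thus all 6 libraries of days 3 and 7 lay above sham, day 3 replicate 2 included, while day 14 replicate 1 lay within the sham range. This ratio was picked after its values were seen and was given no test.

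The chains Col4a3 to Col4a6, which build the type IV networks of kidney, lung and other specialised basement membranes, had lower FPKM, and none passed the test. Col4a3 measured 9.38, 8.18 and 10.7 CPM in sham, 6.44, 6.62 and 4.04 CPM at day 3, 6.74, 10.3 and 5.43 CPM at day 7 and 7.97, 9.76 and 16.2 CPM at day 14. All day 3 libraries were below sham (log2 fold change -0.77 ± 0.31 SE, adjusted p = 0.112 by edgeR). Its neighbour Col4a4 measured 13.1, 16.6 and 14.6 CPM in sham, 18.5, 17.5 and 23.4 CPM at day 3, 16.7, 19.8 and 17.5 CPM at day 7 and 14.0, 25.5 and 24.3 CPM at day 14. It lay on the other side, with all day 3 and all day 7 libraries above sham (day 3 log2 fold change 0.39 ± 0.22 SE, adjusted p = 0.226 by edgeR). Col4a5 measured 27.3, 23.5 and 23.6 CPM in sham, 27.7, 26.4 and 26.1 CPM at day 3, 26.1, 26.9 and 23.4 CPM at day 7 and 21.4, 21.7 and 19.8 CPM at day 14. It had the narrowest range of all members, 1.40-fold from the lowest to the highest library, and its day 14 libraries lay below all others. Col4a6 measured 3.99, 5.66 and 6.96 CPM in sham, 4.64, 2.89 and 5.88 CPM at day 3, 4.29, 7.02 and 5.61 CPM at day 7 and 4.73, 4.16 and 3.95 CPM at day 14, with overlap at every day.

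Col4a3 and Col4a4 also lie head to head, with 412 bases between their starts on chromosome 9 of GRCr8, and Col4a5 and Col4a6 with 1414 bases on chromosome X. The 250 bases before the start of Col4a3 (chr9:91323740-91323989, plus strand) are shown because this pair of neighbours lay on opposite sides of sham at day 3, with the 1 GC box in capitals.
Col4a3: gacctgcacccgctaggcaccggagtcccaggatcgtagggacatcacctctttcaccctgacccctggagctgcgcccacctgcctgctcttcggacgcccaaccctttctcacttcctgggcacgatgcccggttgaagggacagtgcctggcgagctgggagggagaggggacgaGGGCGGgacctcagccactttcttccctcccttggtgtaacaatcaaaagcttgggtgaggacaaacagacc

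Levels of partner chains were compared per length, as the ratio of their FPKM in a library. Col4a1 stood at 1.21, 1.33 and 1.02 times Col4a2 in sham and at 1.86, 1.54 and 1.74 times at day 3, so the day 3 libraries did not overlap sham. The ratio was 1.26, 1.59 and 1.5 at day 7 and 1.36, 1.57 and 1.44 at day 14. Col4a3 stood at 0.908, 0.626 and 0.925 times Col4a4 in sham and at 0.441, 0.480 and 0.220 times at day 3, again without overlap. For the type VI chains Col6a1 over Col6a2 the ratio was 1.0, 0.832 and 1.15 in sham and 1.22, 1.17 and 1.32 at day 3, without overlap. For Col1a1 over Col1a2 it was 0.969, 0.829 and 0.712 in sham and 1.06, 1.10 and 0.885 at day 3, with overlap. With 3 libraries a group the two-sided exact permutation test cannot give a p under 0.1, which these 3 separated ratios at day 3 and Col4a1 over Col4a2 at day 14 reached (adjusted p = 0.45 over the 18 tests of 6 pairs at 3 days, exact permutation). None of the pairs therefore passed.

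Among the other chains, the type VI collagens, which form beaded filaments around cells and in endoneurium, were led by Col6a1 and Col6a2, at 35.6 and 31.5 FPKM over the 12 libraries. Col6a2 measured 84.1, 227 and 53.4 CPM in sham, 233, 150.4 and 338 CPM at day 3, 76.6, 176 and 216 CPM at day 7 and 140.2, 252 and 183 CPM at day 14. Col6a1 measured 72.3, 162 and 52.6 CPM in sham, 243, 152 and 382 CPM at day 3, 62.2, 197 and 227 CPM at day 7 and 135, 234 and 145 CPM at day 14. Both overlapped sham at every day, with day 3 log2 fold changes of 0.97 ± 0.54 (SE; adjusted p = 0.218, edgeR) and 1.42 ± 0.55 (SE; adjusted p = 0.103, edgeR) respectively. Part of Col6a2 (2357 bases) overlaps Ftcd on the opposite strand in the table.

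The FACIT chains Col16a1 and Col12a1, which sit on the surface of fibrils and in matrix near cells, also did not pass the test. Col16a1 measured 72.1, 121 and 95.1 CPM in sham, 196, 166 and 352 CPM at day 3, 146, 146 and 250.1 CPM at day 7 and 101, 195 and 178 CPM at day 14. All libraries of days 3 and 7 lay above sham, by a log2 fold change of 1.29 ± 0.37 (SE; adjusted p = 0.0575, edgeR) at day 3 and 0.87 ± 0.37 (SE; adjusted p = 0.471, edgeR) at day 7. Col12a1 measured 55.9, 130.5 and 41.1 CPM in sham, 264, 96.1 and 311 CPM at day 3, 41.6, 89.9 and 137 CPM at day 7 and 198, 436 and 109 CPM at day 14, with its highest level in day 14 replicate 2 and overlap with sham at every day. Its log2 fold change at day 3 was 1.54 ± 0.66 (SE; adjusted p = 0.127, edgeR). The FACIT chains of cartilage type IX collagen lay below sham at day 7 in Col9a1 and Col9a3. Col9a1 measured 1.19 to 3.98 CPM in sham and 0.308 to 0.700 CPM at day 7, and Col9a3 79.7 to 107 and 59.6 to 76.4 CPM. Col9a2 shares 17062 bases with Rims3, a gene of synaptic terminals, on the same strand in the table, so its counts are uncertain. It measured 2.49, 22.9 and 7.23 CPM at day 3 against 25.8 to 34.5 CPM in sham. Col19a1 and the membrane-spanning Col25a1 likewise were low in the libraries with few neuron markers. Col19a1 measured 1.62, 21.1 and 2.93 CPM at day 3 against 15.3 to 22.3 CPM in sham, and Col25a1 4.65, 20.1 and 1.55 CPM against 19.0 to 32.3 CPM. In both, replicate 2 lay within the sham range, and the part of neuron content in the low values was not tested.

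Type VIII collagen, a network-forming collagen of vessel walls, gave the largest upward fold change among the other chains at day 3. Col8a1 measured 7.04, 3.13 and 3.67 CPM in sham, 34.8, 10.1 and 33.8 CPM at day 3, 3.91, 29.6 and 17.2 CPM at day 7 and 39.4, 72.6 and 10.2 CPM at day 14. Every library of days 3 and 14 lay above sham, as did 2 of 3 at day 7, and sham replicate 2 was the lowest library of all. The log2 fold change was 2.46 ± 0.84 (SE; adjusted p = 0.0801, edgeR) at day 3 and 3.10 ± 0.86 (SE; adjusted p = 0.553, edgeR) at day 14. Day 14 replicates 1 and 2, the higher ones, were the libraries with the most sensory ganglion markers. The day 14 fold change was 1.05 without the 3 libraries with the most Scn10a, a marker of such neurons. That fit kept only replicate 3 of day 14, the lowest of that day, so a lower value was fixed in advance. The part of ganglion tissue in the day 14 level was not tested. Col8a2, the partner chain, measured 17.3, 50.6 and 12.4 CPM in sham, 38.1, 69.0 and 153 CPM at day 3, 15.8, 15.8 and 64.7 CPM at day 7 and 55.7, 108 and 40.1 CPM at day 14, overlapping sham at each day. Its highest level was in day 3 replicate 3. Per length Col8a1 stood at 0.678, 0.103 and 0.494 times Col8a2 in sham and 1.18, 1.12 and 0.423 times at day 14, a wide and overlapping range. Col13a1, a membrane-spanning collagen of cell junctions, measured 2.42, 2.67 and 2.63 CPM in sham and 5.73, 5.69 and 5.23 CPM at day 3, and its lowest day 3 library was 1.96 times the highest sham library.

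**Figure D5:**
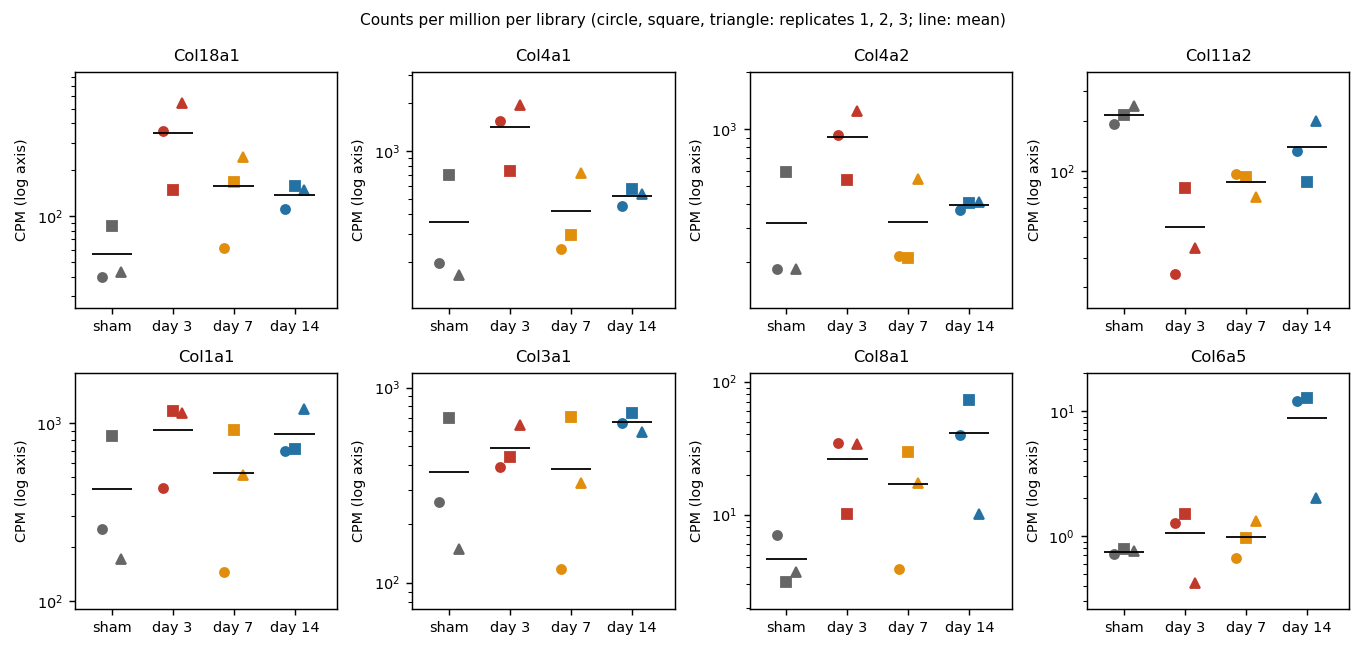
CPM (logarithmic vertical axis) of 8 collagen genes in each library by group, with the group mean as a line. Col18a1 lies above sham in all day 3 libraries and Col11a2 below, Col1a1 and Col3a1 overlap sham through sham replicate 2 (square), and Col6a5 is high in day 14 replicates 1 and 2.

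The comparison of day 7 with sham called 0 of 44 members, beside 0.0160% of all genes (edgeR). At an unadjusted p under 0.05 there were 5 members (11.4%) beside 9.89% of all genes. DESeq2 called 1, beside 2.73%, and limma voom 1, beside 1.47%, which was Col11a2 in both. The class medians of the log2 fold changes were -0.23 (fibrillar), -0.01 (basement membrane) and -0.29 (other), beside -0.02 over all genes. The median over all 44 was -0.16 and turned to 0.31 without sham replicate 2. Libraries did not overlap sham in 7 members. The 3 above were Col4a4, Col13a1 and Col16a1 (beside 13.9% of all genes), and the 4 below were Col9a1, Col9a3, Col11a2 and Col22a1 (beside 9.73%). Col22a1, a FACIT chain of tissue junctions, measured 4.13, 5.10 and 4.41 CPM in sham and 2.51, 2.40 and 2.03 CPM at day 7 (log2 fold change -1.01 ± 0.35 SE, adjusted p = 0.385 by edgeR).

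The comparison of day 14 with sham likewise called 0 of 44 members, beside 0.0160% of all genes (edgeR). There were 6 members at an unadjusted p under 0.05 (13.6%), beside 7.40% of all genes. DESeq2 called Col6a5 and Col8a1, beside 1.10% of all genes, and limma voom called 0, beside 0.0481%. The class medians were 0.56 (fibrillar), 0.25 (basement membrane) and 0.63 (other), beside 0.01 over all genes. With 1 library left out they ran from 0.12 (without sham replicate 1) to 1.23 (without sham replicate 2) over fibrillar and from 0.09 (without sham replicate 3) to 0.62 (without sham replicate 2) over basement membrane chains. Libraries did not overlap sham in 5 members, with Col6a3, Col6a5, Col8a1 and Col18a1 above (beside 11.0% of all genes) and Col4a5 below (beside 4.77%).

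Col6a5, a type VI chain known from skin, had the largest fold change at day 14, with high levels in 2 libraries. It measured 0.712, 0.783 and 0.752 CPM in sham, 1.28, 1.5 and 0.418 CPM at day 3, 0.670, 0.967 and 1.31 CPM at day 7 and 12, 12.6 and 2.0 CPM at day 14. Day 14 replicates 1 and 2 stood far above all others, and replicate 3 was the next highest. The log2 fold change was 3.54 ± 0.69 (SE; adjusted p = 0.406, edgeR), and 1.33 without the 3 libraries with the most Scn10a. That fit kept only replicate 3 of day 14, the lowest of that day, so a lower value was fixed in advance. Replicates 1 and 2 had the most Scn10a, which marks neurons of sensory ganglia, at 78.8 and 131 CPM, with 0.190 CPM in replicate 3. Sensory ganglion markers (8 genes) summed to 690 and 1259 CPM in them and to 213 CPM in replicate 3, beside 189 to 263 CPM in sham. Mrgprd and Scn11a were at 0 in at least 1 library. The part of ganglion tissue in the Col6a5 level was not tested. Day 3 replicate 2, with 19.9 CPM of Scn10a, had 1.5 CPM of Col6a5.

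Between the injured days, 0 of 44 members were called in each of the 3 comparisons (edgeR), beside 0.00% of all genes in each. From day 3 to day 7, 33 of 44 fold changes were below 0, with a median of -0.67 beside -0.04 over all genes. At an unadjusted p under 0.05 there were 4 members beside 14.8% of all genes, and DESeq2 and limma voom called 0 (1.24% and 0.00534% of all genes). Among the chains named above, Col4a1 had the log2 fold change -1.76 ± 0.61 (SE; adjusted p = 0.323, edgeR) and Col4a2 -1.51 ± 0.54 (SE; adjusted p = 0.323, edgeR). Without day 3 replicate 2 there were 6 calls, which were Col4a1, lower at day 7, and Col11a2, Col19a1, Col9a2, Col6a4 and Col25a1, higher at day 7 (13.6% of the members, beside 18.9% of all genes). From day 7 to day 14, 36 of 44 were above 0, with a median of 0.44 beside 0.01 over all genes. There were 4 members at an unadjusted p under 0.05, beside 3.67% of all genes. DESeq2 called Col6a5 alone (0.269% of all genes) and limma voom 0 (0.00%). From day 3 to day 14 the median was 0.27 over fibrillar and -0.52 over basement membrane chains, beside 0.01 over all genes. The fibrillar median turned to -0.04 without day 14 replicate 3 or day 3 replicate 1, and the basement membrane median was -0.17 without day 3 replicate 3. There were 8 members at an unadjusted p under 0.05, beside 17.9% of all genes. DESeq2 called 5 (Col6a5, Col11a2, Col6a4, Col4a3 and Col4a5), beside 5.90%, and limma voom 0, beside 0.00%. Without day 3 replicate 2 edgeR called 8 (18.2%, beside 22.8% of all genes). Col11a2 had the log2 fold change 1.58 ± 0.42 (SE; adjusted p = 0.188, edgeR) and Col4a1 -1.45 ± 0.60 (SE; adjusted p = 0.256, edgeR). These comparisons share libraries with each other and with those against sham.

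Genes that process, bind or sense collagen were followed beside the chains. Of 27 tested genes of collagen biosynthesis, 3 rose at day 3 and 0 fell (edgeR), beside 5.50% of all genes called higher. DESeq2 called 13 higher and 2 lower in this list, beside 2981 higher and 2126 lower of 18568 genes. Limma voom called 14 higher and 1 lower, beside 3312 higher and 2920 lower of 18714 genes. The 3 called by edgeR were P4hb, a subunit of the prolyl hydroxylase that stabilises the triple helix, and Lox and Loxl4, which cross-link fibrils. Lox measured 3.75, 2.30 and 2.44 CPM in sham and 26.6, 7.32 and 29.4 CPM at day 3 (log2 fold change 2.86 ± 0.67 SE, adjusted p = 0.0398 by edgeR), and all its day 7 and day 14 libraries (8.16, 34.3 and 21.2 CPM and 10.2, 37.4 and 20.6 CPM) were above sham too. Loxl4 measured 0.294, 0.706 and 0.369 CPM in sham and 4.86, 1.77 and 7.59 CPM at day 3 (log2 fold change 3.36 ± 0.70 SE, adjusted p = 0.0361 by edgeR). P4hb measured 194, 232 and 184 CPM in sham and 607, 294 and 559 CPM at day 3 (log2 fold change 1.23 ± 0.28 SE, adjusted p = 0.0391 by edgeR). The median log2 fold change of the list was 0.74.

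Of 14 partners of fibrillar matrix, 4 rose at day 3 (median log2 fold change 1.21 over the list, beside 0.03 over all genes), beside 5.50% of all genes called higher. DESeq2 called 8 higher and limma voom 9, and neither called any lower. Over all genes they called 27.5% and 33.3% in either direction. The matricellular thrombospondins Thbs1 and Thbs2 had log2 fold changes of 4.10 ± 0.85 (SE; adjusted p = 0.0358, edgeR) and 3.82 ± 0.68 (SE; adjusted p = 0.0324, edgeR). Thbs2 measured 19.2, 28.8 and 20.4 CPM in sham and 589, 77.1 and 328 CPM at day 3. Ccn2, a matricellular growth factor, had a log2 fold change of 2.70 ± 0.56 (SE; adjusted p = 0.0358, edgeR), and Fn1, which codes for fibronectin, of 2.12 ± 0.51 (SE; adjusted p = 0.0424, edgeR). Fn1 measured 179, 169 and 109 CPM in sham and 999.5, 355 and 694 CPM at day 3, with sham replicate 2 within the range of the other sham libraries, unlike Col1a1. Most other genes of this list were highest among the sham libraries in replicate 2, with Dcn and Lum among them (676 and 223 CPM there). Of 10 collagen receptors 1 rose, beside 5.50% of all genes called higher. It was the integrin chain Itgb1 (log2 fold change 1.36 ± 0.33 SE, adjusted p = 0.0421 by edgeR). Its partner Itga1 had a log2 fold change of 1.36 ± 0.38 (SE; adjusted p = 0.054, edgeR). Of 15 basement membrane partners (laminins, nidogens, agrin, peroxidasin) 0 passed in edgeR, beside 6.70% of all genes. At an unadjusted p under 0.05 there were 5, beside 35.3% of all genes. DESeq2 called 2 higher and 1 lower, beside 27.5% of all genes. Limma voom called 4 higher and 1 lower, beside 33.3% of all genes. Lamc1, a laminin chain of vessels and glia, measured 158, 397 and 132 CPM in sham and 689, 279.7 and 780.4 CPM at day 3. The 8 called partners of all lists were each called in 8 to 13 of 22 other settings, and none without sham replicate 3, where their adjusted p values were 0.164 to 0.168.

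At days 7 and 14 edgeR called 0 partners. The lists of biosynthesis, basement membrane, fibrillar and receptor genes held 27, 15, 14 and 10 tested genes. At an unadjusted p under 0.05 (edgeR) they had 8, 1, 8 and 0 members at day 7, beside 9.89% of all genes. At day 14 they had 11, 0, 7 and 3, beside 7.40% of all genes. DESeq2 called 2, 0, 5 and 0 at day 7 and 3, 0, 4 and 0 at day 14, beside 2.73% and 1.10% of all genes. Limma voom called 1, 0, 2 and 0 at day 7 and 0 in each list at day 14, beside 1.47% and 0.0481% of all genes. All of those calls were higher than sham. Thbs2 had a log2 fold change of 3.51 ± 0.67 (SE; adjusted p = 0.186, edgeR) at day 7, and Plod2, a lysyl hydroxylase of collagen, of 1.54 ± 0.34 (SE; adjusted p = 0.242, edgeR). At day 14 Bgn, the fibril-binding proteoglycan biglycan, measured 106, 147 and 110.0 CPM against 42.7, 59.8 and 34.6 CPM in sham (log2 fold change 1.37 ± 0.35 SE, adjusted p = 0.511 by edgeR). Mrc2, the endocytic collagen receptor, measured 61.4, 133 and 60.8 CPM against 41.1, 44 and 36 CPM in sham. For these genes, named by a rule that picks small p values, every library of the named day lay above sham. That held for 13.9% of all genes at day 7 and 11.0% at day 14. Col1a1, Col1a2 and Col3a1, named for their abundance, overlapped sham on all 3 days.

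The remaining members add little beyond their ranges. Col5a1, Col5a2, Col24a1, Col14a1, Col23a1, Col26a1 and Col6a6 were highest among the sham libraries in replicate 2, by 2.19 to 6.29 times the mean of the others. Col27a1 and Col20a1 had narrow ranges, 1.85-fold and 2.18-fold from lowest to highest library, and Col20a1 shares 15320 bases with Arfgap1 on the same strand. Col7a1, the anchoring fibril chain of skin, ranged from 4.24 CPM in day 14 replicate 1 to 40.7 CPM in day 3 replicate 1. Col6a3 lay above sham in all day 14 libraries (85.4, 98.0 and 86.8 CPM against 29.9, 75.6 and 22.1 CPM). Col10a1, Col17a1, Col6a4 and Col9a1 were at most 1.73, 2.98, 2.48 and 3.98 CPM in any library, too low for firm statements. Col7a1, Col6a6 and Col10a1 also share bases with another gene in the table (Mir711, Pik3r4 and Nt5dc1).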

How the data were processed

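Gene counts and FPKM of 12 rat lumbar cord libraries were taken as the authors deposited them, side by side in one table. Per the labels' protocols, total RNA was extracted on columns and made into libraries with a SMARTer mRNA-Seq kit. For the aligner, the counter and their use of strand and of reads with several matches, nothing was stated in the sources used here, and the submitters' processing notes name mouse builds although the gene identifiers are rat Ensembl ones. Across 9502 genes the deposited FPKM departed from proportionality to the deposited counts by at most 0.41%. Replicates were compared by chi-square, and every pair differed by more than sampling noise.

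CPM was the count over the library's total. The test was edgeR 4.0.16 (R 4.3.3; quasi-likelihood, TMM, filterByExpr, 18714 genes, all 12 libraries, 8 residual degrees of freedom, biological coefficient of variation 0.432), with Benjamini-Hochberg adjustment at 0.05. The SE of a fold change came from its F statistic. The fit was checked on simulated counts. DESeq2 1.42.0, limma 3.58.1 (voom with sample weights), other scalings and filters, a replicate block, and leaving out each library were alternatives. So were fits without the libraries highest in Schwann cell markers and without those highest in Scn10a. CPM over TMM-scaled totals, for the count of members without overlap, was chosen after the data were seen.

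The members, the lists, the naming rule and the libraries left out together were chosen with earlier results of these data known. The rule was the 4 most abundant members of each class, called members and chain pairs, and from each partner list the called genes and up to 4 with the smallest p. Other members named in the text were picked after their values were seen. The symbols Crtap, Pcolce2, Hspg2, Ogn and Ctgf of the partner lists, and Col21a1, were not matched. Ctgf was listed as another symbol of Ccn2, which was matched. RefSeq promoters (GRCr8) matched 35 of 44 members. A gene of the partner lists is not reported here. The single markers Cnmd, Dcn, Lum and Aldh1l1 were named after their values were seen.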

Additional observations from a re-analysis of the deposited data

Results flagged for a closer look

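Fold changes against sham lay on opposite sides at different days in 2 members. The rule took the sham mean alone, with all libraries of a day above it and all of another day below it. The share of all genes that meet this rule was not counted. Col4a5, a type IV chain, lay above the sham mean of 24.8 CPM in all 3 day 3 libraries (27.7, 26.4 and 26.1 CPM) and below it in all 3 day 14 libraries (21.4, 21.7 and 19.8 CPM). Day 3 replicates 2 and 3 lay within the sham range of 23.5 to 27.3 CPM. The log2 fold change of day 14 against day 3 was -0.35 (edgeR adjusted p = 0.223), and DESeq2 gave an adjusted p of 0.0456. Col6a4, a type VI chain, lay below the sham mean of 1.13 CPM in all 3 day 3 libraries (0.0885, 0.591 and 0.324 CPM) and above it in all 3 day 7 libraries (1.27, 1.66 and 1.24 CPM). All 3 day 7 libraries and day 3 replicate 2 lay within the sham range of 0.557 to 1.86 CPM. The log2 fold change of day 7 against day 3 was 2.04 (edgeR adjusted p = 0.323), and it was called without day 3 replicate 2. Col6a4 was the member with the lowest FPKM, at a mean of 0.137 over the 12 libraries.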

How the results depend on the processing

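At day 3 the count of called members was 2 in edgeR, 9 in DESeq2, 12 in limma voom, 0 with a fit of only day 3 and sham, and 0 to 15 with 1 library left out. It was 0 without the libraries highest in Schwann cell markers (sham replicate 2 and day 3 replicate 3; 3 of 18997 genes called) and 14 without those highest in Scn10a (day 3 replicate 2, day 14 replicates 1 and 2; 31.8%, beside 34.7% of all genes). With the replicate block it was 0 (8 of all genes). Replicate numbers did not pair the libraries: deviations of same-numbered libraries correlated at -0.343 to 0.247, above 0.1 in 6 of 18 pairs, and 3 of 12 libraries correlated best with their own number. At day 7 the count of 0 became 1 in DESeq2, in limma voom and with only day 7 and sham, and at day 14 it became 2 in DESeq2. Day 7 against day 3 gave 0 to 6 calls with 1 library left out and 5 without the Scn10a libraries (16.5% of all genes). Day 14 against day 7 gave 1 in DESeq2. Day 14 against day 3 gave 5 in DESeq2 and 0 to 8 with 1 library left out. Without the Scn10a libraries day 14 kept only replicate 3, so no count is given. The cause of these shifts was not tested.

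The log2 ratio of the mean fibrillar sums at day 14 ran from 0.30 to 1.38 with 1 library left out. That of the basement membrane sums ran from 0.15 to 1.20. Both upper values were without sham replicate 2, the library of this comparison with the most Schwann cell marker counts (40551 CPM). The day 14 libraries held 12631 to 23074 CPM of these markers, above the 4977 and 6410 CPM of sham replicates 1 and 3. The part of Schwann cell content in these ratios was not tested. The fold change of Col15a1 at day 3 ran from -0.0731 (without day 3 replicate 3) to 1.37 (without sham replicate 2). Of the named genes' values under alternatives at day 3, 488 kept direction and side of the limit, 106 lost the call, 43 gained it and 1 reversed. The 488 include genes that were called in neither fit, and only called genes could lose a call. Col11a2 and Col18a1 each kept theirs in 13 of 22 settings, and the called partners in 8 to 13 of 22. Libraries held at least 63010295 counts, so at the levels of the abundant chains counting error was small beside the spread between libraries.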
